A study of Mus musculus with 6 samples.

Results

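Genes of the crypt base and of Wnt signalling were followed in colonic intestinal epithelial cells (IECs): Lgr5, Ascl2, Axin2, Smoc2, Sox9, Ephb2, Ephb3, Rnf43, Znrf3 and Cd44. These 10 were taken by symbol from the 55487 genes of the deposited count table. Each symbol matched 1 entry, and all 10 were among the 14650 genes that passed the filter on low counts. The cells came from mice given dextran sodium sulphate (DSS), a detergent-like polysaccharide that injures the colonic epithelium, at 2% in the drinking water. Both groups carried Nsd2 alleles flanked by loxP sites. Mice of the Nsd2 f/f group, called controls here, WT in the sample titles and NSD2-FF in the genotype label, kept the gene, and in Nsd2 Vil-KO mice, called knockouts here and NSD2-FF-VILCRE in the labels, Cre recombinase under the Villin promoter removed the floxed part of Nsd2, which encodes a histone H3K36 methyltransferase. Villin is active in the intestinal epithelium, so cells of other types in a preparation keep Nsd2. There were 3 libraries per genotype, and the methods give a C57BL/6J background and an age of 2 months at the start of DSS. IECs were released from minced colon with EDTA and no sort for epithelial cells was described for these libraries. The sources used here do not give the day of DSS on which the cells were taken, and do not say whether a library was 1 mouse or a pool, so p-values measure the spread between these libraries.

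The colonic epithelium is renewed from stem cells at the crypt base. Wnt ligands bind Frizzled and Lrp receptors there, β-catenin is spared from degradation, and together with TCF/LEF factors it switches on a set of target genes. Lgr5 is a receptor for R-spondins, which strengthen the Wnt signal, and marks the crypt base stem cell. Ascl2 is a transcription factor of the same cell, and Smoc2 a secreted matrix protein that is enriched in it. Axin2, Rnf43 and Znrf3 are targets that feed back on the pathway: Axin2 is a scaffold of the complex that degrades β-catenin, and Rnf43 and Znrf3 are ubiquitin ligases that remove Frizzled from the cell surface. Sox9 is a transcription factor of crypt progenitors, Ephb2 and Ephb3 are receptors that keep cells in position along the crypt, and Cd44 is a hyaluronan receptor.

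Promoter sequence was looked at in mouse RefSeq windows of 300 bases, from 250 before to 50 after the start site (build GRCm38.p6). Windows were found for 6 of the 10 genes (Ascl2, Axin2, Cd44, Ephb2, Ephb3 and, with 2 windows, Rnf43), 7 windows in all. Lgr5, Smoc2, Sox9 and Znrf3 had no entry. The windows of Ascl2, Axin2 and Cd44 are printed 5′ to 3′ on the gene's own strand, since the first pair of genes was almost missing from 1 library in which Cd44 was kept. They lie at chr7:142969215-142969514 (minus strand), chr11:108920099-108920398 (plus strand) and chr2:102901616-102901915 (minus strand). Capitals mark the letters CAAAG, the reverse complement of CTTTG, the core that TCF/LEF factors prefer.

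Ascl2: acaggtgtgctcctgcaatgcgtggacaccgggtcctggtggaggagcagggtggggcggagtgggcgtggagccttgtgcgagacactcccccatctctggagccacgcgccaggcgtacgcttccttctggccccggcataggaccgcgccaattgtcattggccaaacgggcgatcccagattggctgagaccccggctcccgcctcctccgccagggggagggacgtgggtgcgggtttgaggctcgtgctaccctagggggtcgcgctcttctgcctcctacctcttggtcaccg

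Axin2: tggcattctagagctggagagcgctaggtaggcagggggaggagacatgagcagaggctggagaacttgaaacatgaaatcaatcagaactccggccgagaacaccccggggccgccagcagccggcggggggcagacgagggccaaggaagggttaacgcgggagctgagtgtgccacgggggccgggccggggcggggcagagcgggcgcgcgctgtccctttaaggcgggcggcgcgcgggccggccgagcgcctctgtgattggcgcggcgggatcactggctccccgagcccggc

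Cd44: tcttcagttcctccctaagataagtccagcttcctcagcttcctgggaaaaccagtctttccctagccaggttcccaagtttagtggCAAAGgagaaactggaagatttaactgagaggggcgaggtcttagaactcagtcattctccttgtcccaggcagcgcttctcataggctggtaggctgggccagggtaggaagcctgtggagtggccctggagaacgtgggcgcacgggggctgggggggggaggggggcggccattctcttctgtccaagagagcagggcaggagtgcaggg

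The longer form CTTTGAT, searched on both strands, was in 0 of the 7 windows and in 3.73% of all 32851 mouse windows of this length. The core CTTTG, which lies within the longer form, was in 1 of the 7, in Cd44 at position −163 from the start site, and in 53.9% of all windows. The GC content was 67.0% for Ascl2, 70.0% for Axin2 and 58.0% for Cd44, beside a median of 52.7% over all windows. It was 68.7% for Ephb2, 66.7% for Ephb3, and 46.7% and 44.3% for the windows of Rnf43. Ephb2 and Rnf43, like Cd44, were kept in the library from which Ascl2 and Axin2 were almost missing. The absence of a match says only that these letters are not in this window.

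The libraries held from 15439123 to 20350539 counted reads, with a median of 18209316. Levels are given as CPM, counts relative to library size after TMM scaling in edgeR. A count of 3, taken as the floor of detection, corresponded to between 0.146 and 0.242 CPM, which covers counting error only. Knockout replicate 2 and control replicate 3 stood apart from the others, with a mean Spearman correlation across genes of 0.927 and 0.937 with the remaining libraries, against 0.959 to 0.964 for the other 4. They were also the ones with Xist transcripts (3684 and 4296 counts, against 1 to 5), and mitochondrial genes took 19.6% of the counts in control replicate 3 and 5.51 to 9.13% elsewhere. The targeted gene Nsd2 was at 47.9, 51.2 and 24.6 CPM in control replicates 1 to 3 and at 24.2, 10.4 and 20.8 CPM in knockout replicates 1 to 3. The genotypes did not overlap, but control replicate 3 lay next to knockout replicate 1. The log2 fold change of Nsd2 (Nsd2 Vil-KO over Nsd2 f/f) was −1.16 with a standard error of 0.39 (unadjusted p = 0.0217, adjusted p = 0.992, edgeR's quasi-likelihood test). Its exons overlap those of Nelfa on the other strand over 60 bases.

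The genotype comparison asks whether loss of Nsd2 from the epithelium came with another level of stem cell and Wnt target transcripts in DSS colitis. None of the 10 genes met the screening criterion used here (more than 1.2-fold, with an unadjusted p under 0.05), which 482 of 14650 genes met, 3.29%. By direction, 1.65% of all genes were higher and 1.65% lower past it, and 0 of the 10 in either direction. At an adjusted p below 0.05 the count was 0 for the 10 genes and 0 for all genes with edgeR's quasi-likelihood test, where 482 genes had an unadjusted p below 0.05, while DESeq2 gave 4 genes, none of them among the 10. The share of 3.29% with an unadjusted p below 0.05 was lower than the 5.02% of unchanged genes in simulated data. A single gene past the criterion is therefore little evidence of a difference. The median log2 fold change of the 10 genes was −0.05, beside 0.00 for all tested genes. The estimate was below 0 for 7 of the 10 genes, or 70%, and for 49.9% of all tested genes. That count was 2 of 10 without knockout replicate 2, 4 of 10 without control replicate 1 and on log2(FPKM + 1), and 5 to 8 of 10 with each other library left out. Values of the genotypes were free of overlap for 1 of the 10, Rnf43, and for 9.9% of all tested genes.

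For most of the 10 genes, single libraries differed more than the genotypes did. In knockout replicate 2, Lgr5, Ascl2, Smoc2 and Axin2 were close to missing, at 0.851%, 4.69%, 8.45% and 10.1% of the median of the other 5 libraries. The Lgr5 value lay under the floor of detection in that library. There Sox9, Rnf43, Ephb2 and Cd44 stood at 116%, 105%, 90.5% and 83.7%, and Znrf3 and Ephb3 between these sets at 48.7% and 46.5%. This library was below 25% of the median of the others for 4 of the 10 genes, and for 6.66% of all tested genes. It was the lowest of all 6 libraries for 6 of the 10 genes, and for 29.2% of all tested genes. The library was singled out after its values had been seen, so these shares are a description with no test. In bulk libraries, fewer cells of a type and less RNA per cell cannot be told apart.

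**Figure D1:**
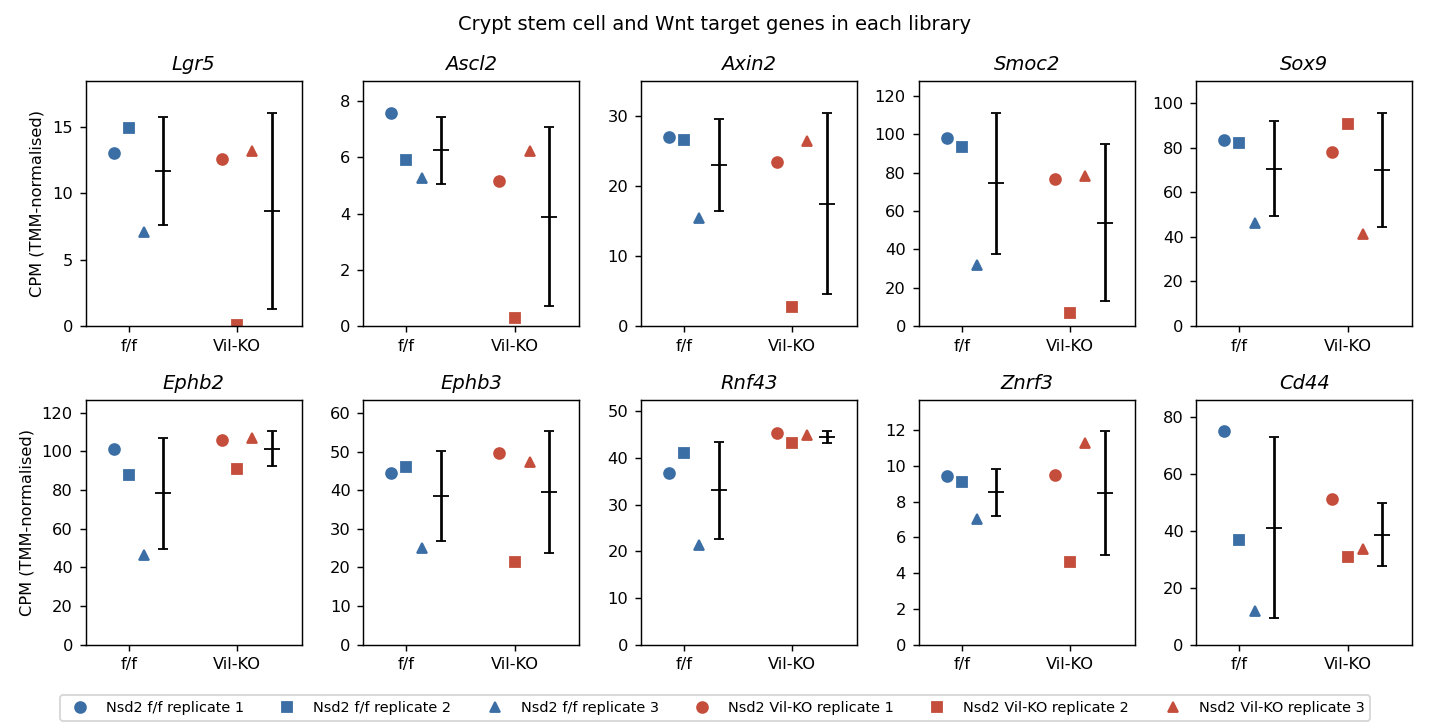
CPM of each of the 10 genes in the 3 Nsd2 f/f and 3 Nsd2 Vil-KO libraries, 1 point per library and 1 panel per gene, with the mean and SD of each genotype and every axis starting at 0. Lgr5, Ascl2, Axin2 and Smoc2 have 1 Nsd2 Vil-KO point near 0 (0.111, 0.277, 2.66 and 6.60 CPM) while the other 2 lie within the range of the Nsd2 f/f points or, for Ascl2 in replicate 1 (5.17 against 5.25 CPM), just below it.

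Of the stem cell genes, Lgr5 (ENSMUSG00000020140, chromosome 10 of GRCm38 from 115450311 to 115587780) had 13.0, 14.9 and 7.11 CPM in control replicates 1 to 3, and 12.6, 0.111 and 13.2 CPM in knockout replicates 1 to 3. The value of 0.111 CPM stood for 2 reads, with an exact Poisson 95% interval of 0.0134 to 0.401 CPM, where the other libraries had 88 to 263 reads. It was under the floor of 3 counts, which was 0.166 CPM in this library. Against the median of those 5 libraries the share of 0.851% had a counting interval of 0.103 to 3.08%. Knockout replicates 1 and 3 fell within the range of the controls. The means were 11.7 ± 4.06 and 8.62 ± 7.38 CPM (SD, n = 3 each), and the log2 fold change was −0.44 with a 95% confidence interval of −2.83 to 1.95. The difference was smaller than the spread between libraries (adjusted p = 0.996, exact permutation test, two-sided, p = 0.6).

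Ascl2 (ENSMUSG00000009248, chromosome 7 from 142966829 to 142969264) had 7.58, 5.91 and 5.25 CPM in the controls and 5.17, 0.277 and 6.23 CPM in the knockouts. Its low value stood for 5 reads, with a counting interval of 0.0901 to 0.647 CPM, and the other libraries had 65 to 153 reads. Those 5 libraries spanned a range of 1.47-fold, the narrowest of the 10 genes. In control replicate 3, Ascl2 was at 94.1% of its median over all 6 libraries, where Lgr5 was at 55.5%. The log2 fold change between genotypes was −0.68 (95% confidence interval −2.56 to 1.2, adjusted p = 0.992), the lowest estimate among the 10 genes.

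Smoc2 (ENSMUSG00000023886, chromosome 17 from 14279506 to 14404790) had 98.0, 93.2 and 32.0 CPM in the controls and 76.8, 6.60 and 78.2 CPM in the knockouts. With 119 reads in knockout replicate 2 and 396 to 1978 elsewhere, it gave the low value of this library the tightest interval of the 4 lowest genes relative to its size, 7.0 to 10.1% of the median of the others. Control replicate 3 was low as well, at 41.3% of the median over the 6 libraries. In the remaining 4 libraries the controls were above the knockouts, with means of 95.6 and 77.5 CPM. Axin2 and Sox9 had the same order in these 4 libraries, and Ephb2, Ephb3, Rnf43 and Znrf3 the reverse order. The share of all genes separated in this way was not computed. The log2 fold change of Smoc2 was −0.47 over all 6 libraries (95% confidence interval −2.40 to 1.46, adjusted p = 0.995). In the 4 libraries without Xist transcripts it was −0.29 with an unadjusted p of 0.0259, the single case in which Smoc2 met the screening criterion, which 11% of all genes tested met in that comparison.

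Axin2, the pathway's feedback scaffold (ENSMUSG00000000142, chromosome 11 from 108920349 to 108950783), had 27.1, 26.6 and 15.5 CPM in the controls and 23.5, 2.66 and 26.4 CPM in the knockouts, or 48 reads in knockout replicate 2 against 192 to 546. The share of the median of the others was 10.1%, with a counting interval of 7.45 to 13.4%. The log2 fold change was −0.40 (95% confidence interval −2.06 to 1.27, adjusted p = 0.995). Its exons overlap the antisense gene Gm11670 over 209 bases, and reads there cannot be assigned if counting ignored strand.

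The fold changes of these 4 genes rested on knockout replicate 2. Without that library they were 0.14 for Lgr5, −0.14 for Ascl2, 0.06 for Smoc2 and 0.11 for Axin2, and none of the 4 met the screening criterion. The median over all 10 genes was then 0.12. Without control replicate 3 that median was −0.39, and again no gene met the criterion.

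**Figure D2:**
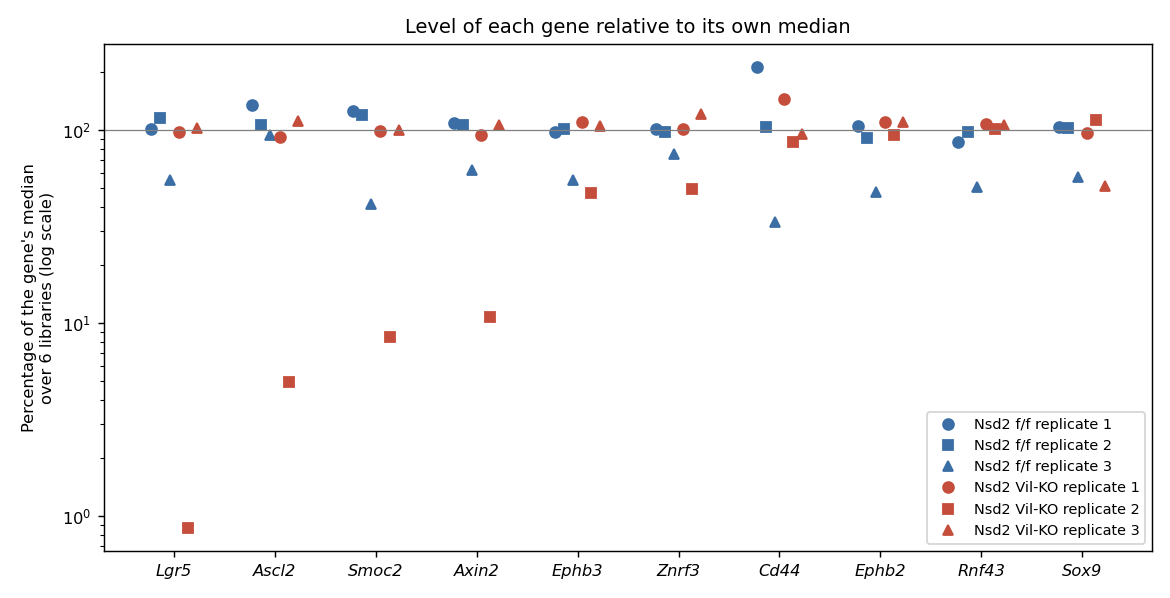
Level of each gene in each of the 6 libraries as a percentage of that gene's median over the 6 libraries, on a log axis. In Nsd2 Vil-KO replicate 2 the genes spread from 0.867% (Lgr5) to 113% (Sox9), while in Nsd2 f/f replicate 3 they lie between 33.6% (Cd44) and 94.1% (Ascl2).

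The other targets of the feedback kind kept more of their level than Axin2 in knockout replicate 2. Rnf43 (ENSMUSG00000034177, chromosome 11 from 87662722 to 87735539) had 36.8, 41.0 and 21.3 CPM in the controls and 45.3, 43.1 and 45.0 CPM in the knockouts. The knockout libraries lay between 43.1 and 45.3 CPM, all above the controls. The means were 33.0 ± 10.4 and 44.5 ± 1.21 CPM (SD, n = 3 each). The log2 fold change of 0.43 had a 95% confidence interval of −0.18 to 1.03 (unadjusted p = 0.14, adjusted p = 0.992), and the exact permutation test, two-sided, gave p = 0.1, the smallest that 10 splits of 6 libraries allow. The estimate was 0.20 without control replicate 3, the control with the lowest value. With a term for Xist in the model, Rnf43 met the screening criterion (0.48, unadjusted p = 0.0487), as did 7.82% of all genes in that fit.

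Znrf3 (ENSMUSG00000041961, chromosome 11 from 5276324 to 5444847), which has the same function as Rnf43, had 9.46, 9.10 and 7.03 CPM in the controls and 9.51, 4.6 and 11.3 CPM in the knockouts. The knockout libraries included both the highest and the lowest value. The log2 fold change was −0.01 (95% confidence interval −0.91 to 0.89, adjusted p = 0.999). The low value was 48.7% of the median of the others, with a counting interval of 38.8 to 60.3%, so it lay clear of the 10.1% of Axin2 beyond counting error.

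Sox9 (ENSMUSG00000000567, chromosome 11 from 112782224 to 112787760) had 83.5, 82.1 and 46.0 CPM in the controls and 78.0, 90.6 and 41.4 CPM in the knockouts. It peaked in knockout replicate 2, the library in which Lgr5 was close to missing, and its lowest was in knockout replicate 3, where Lgr5 was at 13.2 CPM. The genotypes overlapped throughout, with means of 70.5 ± 21.3 and 70.0 ± 25.5 CPM (SD, n = 3 each) and a log2 fold change of −0.01 (95% confidence interval −0.84 to 0.81, adjusted p = 0.999).

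The EphB receptors differed from each other in the low library. Ephb2 (ENSMUSG00000028664, chromosome 4 from 136647539 to 136835988) had 101, 87.5 and 46.1 CPM in the controls and 106, 91.1 and 107 CPM in the knockouts. It was lowest in control replicate 3, and the other 5 values lay between 87.5 and 107 CPM. Its log2 fold change was 0.38 (95% confidence interval −0.31 to 1.06, adjusted p = 0.992), and 0.11 without control replicate 3. Ephb3 (ENSMUSG00000005958, chromosome 16 from 21204755 to 21223305) had 44.6, 46.1 and 25 CPM in the controls and 49.8, 21.4 and 47.4 CPM in the knockouts. Here both of the libraries that stood apart were low, 1 in each genotype, and the log2 fold change was 0.04 (95% confidence interval −0.85 to 0.92, adjusted p = 0.999).

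Cd44 (ENSMUSG00000005087, chromosome 2 from 102811141 to 102901665) had 74.9, 36.6 and 11.8 CPM in the controls and 51.2, 30.7 and 33.7 CPM in the knockouts. The controls held both the highest and the lowest value, 6.35-fold apart, the widest range among the 5 libraries other than knockout replicate 2 for any of the 10 genes. The means were 41.1 ± 31.8 and 38.5 ± 11.1 CPM (SD, n = 3 each), and the log2 fold change was −0.10 (95% confidence interval −1.47 to 1.28, adjusted p = 0.999). Cd44 is also present on leukocytes, and Ptprc (CD45), which defines them, was at 30.7, 19.1 and 5.74 CPM in the controls and at 18.4, 5.71 and 8.68 CPM in the knockouts. Both genes were highest in control replicate 1. The part of leukocytes in the Cd44 values was not tested.

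**Figure D3:**
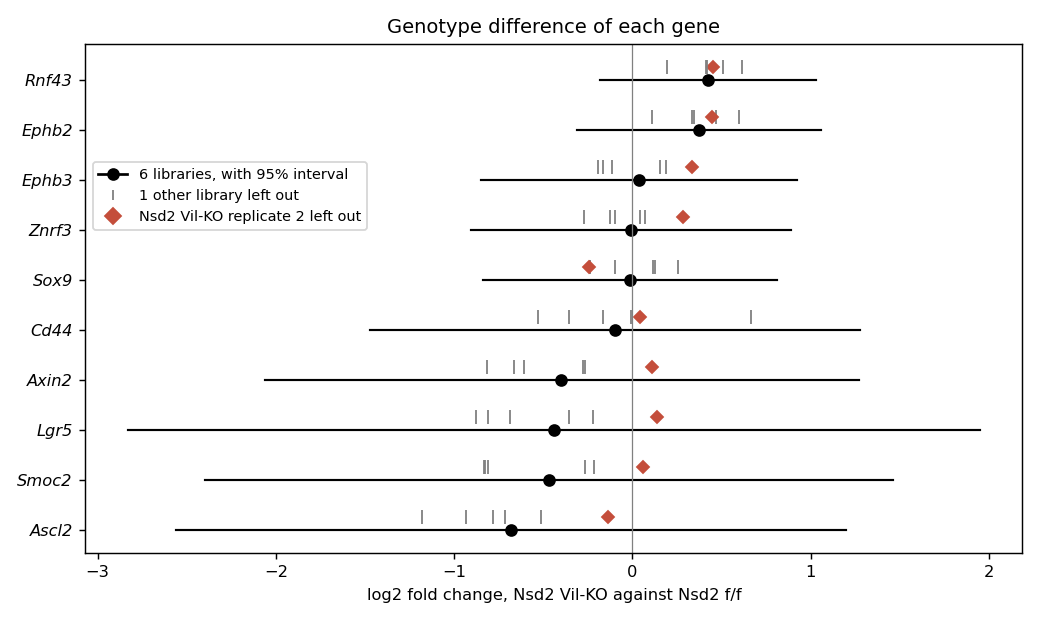
Log2 fold change of each gene between Nsd2 Vil-KO and Nsd2 f/f with its 95% confidence interval, calculated from the F statistic of edgeR's test, and the estimates with each library left out in turn. Every interval includes 0, and the intervals of Lgr5 (−2.83 to 1.95) and Smoc2 (−2.40 to 1.46) are the widest.

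The confidence intervals set what 3 libraries per genotype could show. For Rnf43, with the narrowest interval, they ran from −0.18 to 1.03, and for Lgr5 from −2.83 to 1.95, so a shift of Lgr5 by several fold in either direction could not be told from none. The biological coefficient of variation over all genes was 41.2%.

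The likeness between the 10 genes was measured as the root mean square difference of their centred log2 CPM over the 6 libraries, where 0 means parallel profiles. The closest pair was Ephb2 and Rnf43 at 0.13, followed by Ephb3 and Znrf3 at 0.19, Axin2 and Smoc2 at 0.29 and, both at 0.40, Ascl2 and Axin2 and Ephb2 and Ephb3. Lgr5 was nearest to Ascl2, at 0.73. Lgr5 was farthest from Sox9, at 2.4. Axin2 was at 1.0 from Lgr5, at 0.80 from Znrf3 and at 1.2 from Rnf43. The grouping into 4 genes that were nearly missing from knockout replicate 2, a pair at 46.5% and 48.7% and 4 genes near the level of the other libraries was made after these values were seen, and it has no test.

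Over the 13340 tested genes that averaged 1 CPM or more, the 5 profiles closest to Lgr5 were those of Scd1 (0.29), Gm8979 (0.37), Npy1r (0.45), Ninj2 (0.49) and 9130208D14Rik (0.52). Scd1, a fatty acid desaturase, had 59.2, 73.9 and 43.5 CPM in the controls and 53.8, 0.777 and 94.6 CPM in the knockouts. It thus shared the near absence from knockout replicate 2. The 5 closest to Axin2 were Eef1akmt3 (0.11), Fv1 (0.13), Gm49331 (0.17), Gm609 (0.18) and Lipg (0.18). Lipg, endothelial lipase, had 55.2, 59.3 and 47.0 CPM against 59.4, 6.10 and 67.7 CPM. Over 6 libraries of which 1 dominates the profile, such likeness is decided mainly by that library.

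Compared per exon length, as FPKM, the order of the median levels over the 6 libraries was Sox9 (19.4), Smoc2 (11.1), Ephb2 (7.61), Ephb3 (6.83), Rnf43 (6.41), Cd44 (5.19), Axin2 (4.53), Ascl2 (3.44), Lgr5 (1.25) and Znrf3 (1.18). The ranges of each pair of neighbours in this order overlapped. Ascl2 was above Lgr5 in 6 of 6 libraries, while Lgr5 was above Znrf3 in 3 of 6.

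The rest of the Wnt pathway was described with 6 further lists of 84 genes, of which 53 were tested. Of these 53 genes, 1 was higher and 2 were lower past the screening criterion in Nsd2 Vil-KO, 5.66% beside the 3.29% of all genes, and their median log2 fold change was 0.18. In the 4 libraries without Xist, 3 receptors, 2 transducers and 1 other target were higher, and 1 receptor and 1 inhibitor lower. With a term for Xist, 2 transducers, 1 receptor, 1 nuclear factor and 1 inhibitor were higher, and 1 ligand-list gene and 1 receptor lower. In those fits 11% and 7.82% of all genes met the criterion. In the list of ligands and the genes that help to secrete them 4 of 20 were tested, and Wnt3a, Wnt9b, Wnt10a and Rspo4 were at 0 counts in every library. Wls, the carrier of Wnt proteins to the cell surface, named after its values were seen, was at 53.6 to 103 CPM. Of this list Porcn, the acyltransferase that lipid-modifies Wnt proteins, was lower past the criterion, at 3.37, 3.01 and 6.14 CPM in the controls and 2.15, 2.0 and 1.38 CPM in the knockouts (log2 fold change −1.16, unadjusted p = 0.0310, adjusted p = 0.992). The genotypes did not overlap for Porcn, and the criterion was lost without control replicate 3 (−0.79), without knockout replicate 1 (−1.29), without knockout replicate 3 (−0.99) and in the 4 libraries without Xist (−0.84).

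Of 14 tested receptors and co-receptors, 0 were higher and 1 was lower past the criterion. This was Ror1, a receptor for non-canonical Wnt ligands, with 6.89, 5.44 and 7.03 CPM against 3.41, 1.44 and 4.24 CPM (log2 fold change −1.08, unadjusted p = 0.0427, adjusted p = 0.992). Its call was lost in 7 of the 18 alternatives, namely without control replicate 1, 2 or 3, without knockout replicate 1, with library size alone, with the earlier edgeR method and on log2(FPKM + 1), where the estimate was −0.45. Lgr4, the homologue of Lgr5 and the more widely expressed R-spondin receptor, was named after its values were seen. It had 199, 202 and 256 CPM in the controls and 226, 130 and 268 CPM in the knockouts, or 57.5% of the median of the others in the library where Lgr5 was at 0.851%.

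Of the transducers 0 of 13 and of the nuclear factors 0 of 11 met the criterion. The smallest p-values in each direction among transducers belonged to the kinases Gsk3b (log2 fold change 0.33) and Gsk3a (0.27) and to Btrc (−0.39) and Dvl3 (−0.08), and among nuclear factors to the corepressors Tle1 (0.40) and Tle3 (0.97) and to Tcf7l1 (−0.42) and Tle4 (−0.38). Tle3 was highest in knockout replicate 2, at 103 CPM against 18.9 to 36.1 CPM elsewhere. β-catenin itself (Ctnnb1), named after its values were seen, was at 524, 489 and 594 CPM in the controls and at 600, 636 and 590 CPM in the knockouts, highest in the library where Lgr5 was close to missing.

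Among 4 tested secreted or membrane inhibitors, Kremen2, a receptor for Dkk proteins, was higher past the criterion, with 24.2, 20 and 18.0 CPM against 34.3, 49.5 and 24.2 CPM (log2 fold change 0.79, unadjusted p = 0.0289, adjusted p = 0.992). The call was lost without control replicate 2 or 3 and without knockout replicate 1 or 2, with values from 0.50 to 0.83, with limma-voom (0.42) and in the 4 libraries without Xist (0.42). None of 7 other Wnt targets met the criterion. Prox1 (0.48) and the cyclin Ccnd1 (0.54) had the smallest p-values among estimates above 0 and Bambi (−0.28) and Myc (−0.32) among those below 0. Myc had 42.3, 56.4 and 22.8 CPM in the controls and 48.3, 12.6 and 36.7 CPM in the knockouts, and was thus lowest in the same library as Lgr5, at 29.8% of the median of the others.

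Of 15 other crypt progenitor genes, 0 were higher and 1 was lower past the criterion. Reg4, which marks deep crypt secretory cells of the colon, had 358, 381 and 741 CPM in the controls and 177, 98.4 and 213 CPM in the knockouts. Every control was above every knockout library, and the log2 fold change was −1.60 with a standard error of 0.40 (unadjusted p = 0.00522, adjusted p = 0.992). Leaving out 1 library at a time gave estimates from −1.84 to −1.18, and Reg4 met the criterion in each of those fits and under each other alternative. The estimate was smaller with limma-voom (−1.02) and in the 4 libraries without Xist (−0.91). Kit, also found on deep crypt secretory cells, and Lrig1, a progenitor gene, were named after their values were seen and were at 23.9% and 39.4% of the median of the others in knockout replicate 2. The median gene of this list was at 67.1% there, and 7 of the 15 tested were lowest in that library. Prom1 and Hopx, also named after their values were seen, were at 205% and 200%. None of 5 further Eph and ephrin genes met the criterion. Those with the smallest p-values were Efnb1 (0.12), Ephb6 (0.47), Efnb3 (−0.44) and Ephb4 (−0.12). Ephb6 had 12.5, 14.1 and 18.9 CPM in the controls and 18.9, 1.44 and 42.7 CPM in the knockouts, and so shared the near absence of Lgr5 from knockout replicate 2, at 7.64%.

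Markers of other cells were read beside these values. The summed level of 16 proliferation genes was 1240, 1290 and 360 CPM in the controls and 1180, 709 and 1550 CPM in the knockouts, while the sum of the 10 crypt genes was 496, 443 and 217 CPM against 458, 291 and 410 CPM. Both sums were lowest in control replicate 3 and next lowest in knockout replicate 2. None of the 16 proliferation genes met the criterion, and Ccnb2 (0.52), Rrm2 (0.52), Tyms (−0.10) and Pcna (−0.03) had the smallest p-values in each direction. Mki67, named after its values were seen, was at 279, 288 and 70.3 CPM against 280, 114 and 412 CPM. In knockout replicate 2 Mki67 was at 40.6% of the median of the others, and the median gene of the list at 65.4%. Rrm2 and Ccnb2 were at 116% and 114% there, and 0 of the 16 genes were lowest in that library. The proliferation sum was thus lower in control replicate 3 than in knockout replicate 2, whereas Lgr5 (7.11 and 0.111 CPM) stood in the opposite order.

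The colonocyte list summed to 6110, 6670 and 12200 CPM in the controls and to 8250, 6380 and 7260 CPM in the knockouts, highest in control replicate 3. Its gene Vil1, whose promoter drove Cre, was at 549 to 988 CPM in all 6 libraries. None of its 12 genes met the criterion, and its median log2 fold change was −0.23. With limma-voom 2 were higher past it and the median was 0.18, in the 4 libraries without Xist 3 were higher and the median was 0.34, and without control replicate 3 the figures were 1 and 0.31. DESeq2 gave 1 lower and log2(FPKM + 1) gave 1 higher. The shares of all genes past the criterion were 9.7% with limma-voom, 11% in the 4 libraries, 3.38% without control replicate 3, 4.32% with DESeq2 and 2.5% on log2(FPKM + 1). The smallest p-values were those of Slc9a3 (0.49), Ceacam1 (0.12), Aqp8 (−1.70) and Car4 (−0.71), and Aqp8, a water channel of surface colonocytes, had 223, 216 and 973 CPM against 225, 27.9 and 182 CPM. The goblet cell list summed to 14200 to 16400 CPM in the controls and to 9950 to 11200 CPM in the knockout libraries. The estimate was below 0 for each of the 8 genes, but single genes could overlap between the genotypes. Muc2, named after its values were seen, had 6860, 5690 and 3510 CPM in the controls and 5550, 2250 and 4310 CPM in the knockouts. Of the 8 goblet cell genes 1 met the criterion, Clca1, with 886, 958 and 2280 CPM against 515, 148 and 658 CPM (log2 fold change −1.64, unadjusted p = 0.0317, adjusted p = 0.992). The call was lost without control replicate 3 (−1.06), without knockout replicate 1 (−1.77) and with a term for Xist (−1.65). Clca1 met the criterion with a smaller estimate with limma-voom (−0.81) and in the 4 libraries without Xist (−0.64). The number of goblet cell genes lower past the criterion was 5 with limma-voom, 6 in the 4 libraries without Xist, 4 without knockout replicate 2 and 3 with a term for Xist, in fits where 9.7%, 11%, 5.08% and 7.82% of all genes met it. It was 2 with library size alone and on log2(FPKM + 1), with 2.61% and 2.5% of all genes, and 0 without knockout replicate 1, with 3.67%. Of 8 enteroendocrine and tuft cell genes 0 met the criterion, and the list summed to 110 to 174 CPM in the controls and to 105 to 110 CPM in the knockout libraries. Trpm5 (0.82) and Pou2f3 (0.93) of tuft cells and the hormone genes Pyy (−0.61) and Gcg (−0.48) had the smallest p-values in each direction. With limma-voom 3 of these 8 genes were higher and 1 lower past the criterion, in the 4 libraries without Xist 2 were higher and 1 lower, and in the other alternatives 0 or 1.

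The leukocyte list of 14 genes summed to 761, 160 and 26.8 CPM in the controls and to 175, 999 and 70.3 CPM in the knockouts. In knockout replicate 2 that sum came mainly from the calprotectin genes S100a8 (574 CPM) and S100a9 (405 CPM), while Ptprc was at 5.71 CPM there. None of the 14 met the criterion, and Cd4 (1.01), S100a8 (1.42), Csf1r (−1.30) and Itgax (−1.2) had the smallest p-values in each direction. Of the 9 fibroblast genes 0 met the criterion, and the smallest p-values were those of Fbln1 (0.70), Pdgfrb (−1.21) and Dcn (−1.35). They summed to 312, 104 and 38.4 CPM against 137, 44.8 and 65.2 CPM, and Col1a1 was under the floor of 3 counts in control replicate 3 and at 0.444 CPM in knockout replicate 2. Of the 44.8 CPM in knockout replicate 2, Fbln1 made up 38.2 CPM, 104% of its median in the other libraries. Of the 38.4 CPM in control replicate 3, Pdgfrb made up 18.9 CPM, its highest value, against 0.777 to 9.51 CPM elsewhere. The median fibroblast gene was at 9.39% of the median of the other libraries in knockout replicate 2, beside 8.45% for Smoc2, which some stromal cells express too. Smooth muscle genes (6 tested, 0 past the criterion) summed to 2.18 to 20.6 CPM and enteric glia and neuron genes (1 tested) to 0.388 to 1.73 CPM. Endothelial genes summed to 5.25 to 7.51 CPM over the 6 libraries, with Vwf (1.00) higher and Pecam1 (−1.33) lower past the criterion among 3 tested. These calls were lost in 8 (Vwf) and 10 (Pecam1) of the alternatives, with estimates between 0.19 and 1.13 for Vwf and between −1.52 and −0.24 for Pecam1. The part of any of these cell types, of mitochondrial content or of the mouse's Xist status in the levels of the 10 genes was not tested.

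**Figure D4:**
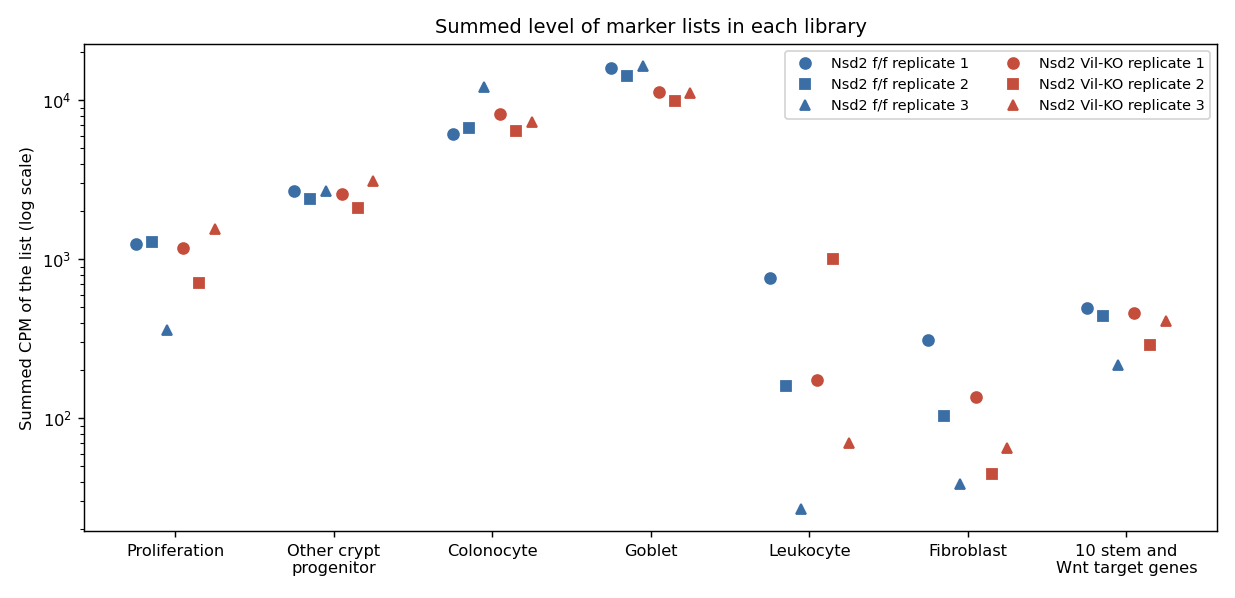
Summed CPM of the 10 genes and of the marker lists in each of the 6 libraries, on a log axis, 1 point per library coloured by genotype. The proliferation sum runs from 360 to 1550 CPM and the leukocyte sum from 26.8 to 999 CPM, against 217 to 496 CPM for the 10 genes.

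Where control replicate 3 and knockout replicate 2 were both set aside, the 4 remaining libraries were close for most of the 10 genes. The control and knockout means were 14.0 and 12.9 CPM for Lgr5, 6.74 and 5.70 for Ascl2, 26.8 and 24.9 for Axin2, 45.4 and 48.6 for Ephb3, 94.1 and 107 for Ephb2, 38.9 and 45.2 for Rnf43 and 9.28 and 10.4 for Znrf3. The gap was wider for Sox9, with 82.8 and 59.7 CPM, and for Cd44, with 55.8 and 42.5 CPM, but the knockout replicates differed by more than that gap from each other. In those 4 libraries 1 of the 10 genes, Smoc2, met the screening criterion, beside 1646 of the 15030 genes tested there, 11%, so the count was at the background share. The median log2 fold change of the 10 genes was −0.10.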

How the data were processed

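RNA was measured by sequencing in 6 libraries, 3 Nsd2 f/f and 3 Nsd2 Vil-KO, grouped by the genotype in the sample labels. The authors deposited a table of raw read counts for Ensembl genes, neither normalised nor filtered. Reads of polyA RNA had been trimmed with Cutadapt and Trimmomatic and aligned to GRCm38 (mm10 in the submitters' processing notes) with HISAT2. Neither the program that counted reads nor its strand setting is given in the sources used here, and labels and methods name different library kits, so antisense partners can share reads. Ballgown on FPKM was the test of the study. Its results name a fold change and a p-value as the criterion and its methods an adjusted p, so the p was taken as unadjusted for the screening criterion and both counts were made. The deposited unit being counts, a count test was used here.

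Genotypes were compared in edgeR 4.0.16 under R 4.3.3 (TMM, filterByExpr, quasi-likelihood test with robust estimation, no covariate) and Benjamini-Hochberg adjustment over 14650 genes. Log2 CPM for likeness used a prior count of 2. FPKM used union exon lengths of GENCODE vM21, which also gave coordinates and held 99.5% of the listed genes. Exact permutation tests ran over 10 splits. The script was first tested on simulated data with 200 genes changed by a log2 fold change of 2. Of these, 89% met the screening criterion and 49.5% had an adjusted p below 0.05. Among unchanged genes 5.02% had an unadjusted p below 0.05. Simulated libraries of a genotype shared the same mean for each gene. None stood apart there as knockout replicate 2 and control replicate 3 did in the data. The 6 columns of the table were all used. Figures were drawn with matplotlib 3.10.9.

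The 10 genes and the lists were chosen with earlier results of these data known. Besides the 10 genes, the text names Nsd2, Xist, the genes of each list past the criterion or, where none passed, the 2 lowest p-values on each side of 0, and the 5 genes most like Lgr5 and Axin2. Genes named outside this rule are marked as such, are defining markers of a list or were at 0 counts in every library. S100a9 and Col1a1 were named after their values were seen. One marker is not reported here. The 18 alternatives were another scaling (RLE, or library size alone), another filter (no filter, or a minimum of 10 counts per library) or another model (DESeq2 1.42.0, limma 3.58.1 with voom quality weights or on log2(FPKM + 1)), a replicate block, Xist as a covariate, the 4 libraries without Xist, mitochondrial genes left out, each library left out in turn and, added after seeing the data, edgeR's earlier quasi-likelihood method.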

Additional observations from a re-analysis of the deposited data

How the results depend on the processing

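The count of the 10 genes past the screening criterion was 0 in 16 of the 18 alternatives and 1 with a term for Xist in the model (Rnf43) and in the 4 libraries without Xist (Smoc2). Each of the 6 fits that left out a library gave 0. The number of all genes past the criterion, 482, was 861 without a filter (3.27% of 26360 genes tested, against 3.29%), 1421 with limma-voom and quality weights (9.7%), 303 with the replicate block, 1145 with the Xist term (7.82%) and 1646 in the 4 libraries (11%), and 323 (without control replicate 2) to 769 (without knockout replicate 2) with a library left out. Nsd2 missed the criterion with library size only (−1.12) and on log2(FPKM + 1) (−0.67), and with a library left out it ran from −1.42 to −0.87, missing it without control replicate 1 or 2. Estimates near 0 changed sign without passing the criterion: Znrf3 with library size only (0.059), voom (0.15), log2(FPKM + 1) (0.011) and in the 4 libraries (0.18), Sox9 on log2(FPKM + 1) (0.018) and with Xist as a covariate (0.00055), Cd44 on log2(FPKM + 1) (0.17), with the block (0.21) and with Xist (0.16), and Ephb3 with the block (−0.00096) and Xist (−0.0049). With a library left out the ranges of the genes that changed sign were −0.88 to 0.14 for Lgr5, −0.82 to 0.11 for Axin2, −0.84 to 0.058 for Smoc2, −0.24 to 0.26 for Sox9, −0.20 to 0.33 for Ephb3, −0.27 to 0.29 for Znrf3 and −0.53 to 0.67 for Cd44. The other genes ranged from −1.18 to −0.14 for Ascl2, from 0.11 (without control replicate 3) to 0.60 (without control replicate 1) for Ephb2 and from 0.20 to 0.62 for Rnf43. The estimate of Sox9 was −0.51 with limma-voom and −0.46 in the 4 libraries, neither past the criterion. With the block and with the Xist term the estimates were −1.02 and −1.09 for Lgr5, −1.18 and −1.06 for Ascl2, −0.78 and −0.81 for Axin2 and −0.80 and −0.91 for Smoc2, none past the criterion. The block also ended the calls of Porcn (−1.12) and Vwf (0.97) and gave 1 lower colonocyte gene. Besides the colonocyte, goblet and enteroendocrine lists, no list had more than 3 genes past the criterion in 1 direction under any alternative, with 3 higher receptors in the 4 libraries as the highest count. The cause of these shifts was not tested. Same-numbered libraries correlated by 0.32, −0.35 and −0.11 in their deviations from the group means, and differently numbered ones by −0.36 to 0.31. Deviations from the mean of 3 libraries depend on each other, so these values cannot show whether the replicate numbers paired the libraries. The filter of at least 10 counts in each library left out Lgr5 and Ascl2. With 2 and 5 reads in 1 library, depth limits how low those 2 genes can be placed there.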
